A study of Mus musculus with 90 samples.

Results

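A set of 10 nuclear receptors of liver was described across 54 RNA libraries and 3 lists of chromatin regions. The members were named by symbol, with no threshold on their values, and are Hnf4a, Nr1i2 (PXR), Nr1i3 (CAR), Nr1h3 (LXRα), Nr5a2 (LRH-1), Nr2f6 (EAR2), Rxra, Rora, Esr1 and Esrra, which makes 10 of the 24308 gene symbols in the expression table. For a symbol with several RefSeq IDs, the ID with the highest mean level was used. All 10 passed the filter on low values in all 5 experiments.

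Each library came from the liver of 1 C57BL/6 background mouse trained to night-restricted feeding (NRF), in which food is present only in the dark period. In the NRF experiment, wild-type mice were sampled at ZT10, or at ZT14 with food (ZT14-fed) or without it (ZT14-unfed), with 2 ribosome-depleted libraries a group. In the injected mice, all wild type and sampled at ZT14, unfed mice with vehicle were compared with fed mice given vehicle, dexamethasone (dex, a GR agonist, 1 mg/kg), the insulin receptor antagonist S961, or both, with 4 poly(A) libraries a group. Floxed Nr3c1 mice received AAV8 carrying GFP (GR fl/fl AAV-GFP) or Cre (L-GRKO), each driven by the hepatocyte promoter Tbg, and were unfed at ZT14 (n = 4 each). Irs1 and Irs2 floxed mice without (IRS fl/fl) or with Alb-Cre (L-IRSdKO) were fed at ZT14, and every one of them, controls included, had been injected with dex (n = 4 each). Wild-type mice kept for 10 weeks on chow (lean) or on a high-fat diet (obese) were unfed or fed at ZT14 (n = 3 each). Mice of the NRF, injected and IRS experiments were 10 weeks old, and the diets began at 5 weeks of age. Nothing in the table pairs the libraries, and the p-values measure the spread between single mice.

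The targeted genes moved with their labels: Nr3c1 had 14.2 ± 1.55 RPKM in GR fl/fl AAV-GFP and 4.41 ± 0.637 in L-GRKO (mean ± SD, n = 4 each), and Irs1 fell from 4.03 ± 1.22 to 0.199 ± 0.0820 RPKM in L-IRSdKO. Irs2 went from 2.19 ± 2.31 to 0.773 ± 0.337 RPKM and overlapped between the 2 groups. The summed level of 6 hepatocyte markers was 28945 RPKM or more in every library outside the L-IRSdKO experiment and at most 2909 RPKM inside it, in controls and knockouts alike, so that levels are not compared between experiments. In the injected mice, replicate 4 of each group carries library numbers of a second series, and these libraries deviated from their group means together (pairwise r 0.44 to 0.61 over genes). In bulk liver, fewer cells of a type and less RNA per cell cannot be told apart.

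Nuclear receptors are transcription factors that share a zinc-finger DNA-binding domain and a ligand-binding domain. RXRα is the common dimer partner of PXR, CAR and LXRα. HNF4α and LRH-1 maintain hepatocyte identity and metabolism, PXR and CAR sense foreign compounds and bile acids, LXRα senses oxysterols, RORα drives clock genes through response elements it shares with REV-ERBs, ERα is the estrogen receptor, ERRα acts on mitochondrial genes with PGC-1 coactivators, and EAR2 acts mostly as a repressor.

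The levels of the 10 genes span more than an order of magnitude per unit of transcript length. In lean unfed mice, Hnf4a stood highest at 198 ± 18.8 RPKM (n = 3), followed by Nr1i3 at 86.6 ± 11.8 and Rxra at 78.4 ± 4.68, which overlapped. Nr1i2 at 47.8 ± 2.71 lay above Nr1h3 at 39.6 ± 2.46, with no shared values. Esrra at 17.1 ± 2.18 and Nr2f6 at 17.0 ± 1.12 overlapped. Nr5a2 at 12.2 ± 2.21 lay just above Rora at 9.87 ± 0.740, the lowest Nr5a2 value being 10.64 RPKM and the highest Rora value 10.61, and Esr1 was lowest at 6.54 ± 1.21 RPKM.

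**Figure D1:**
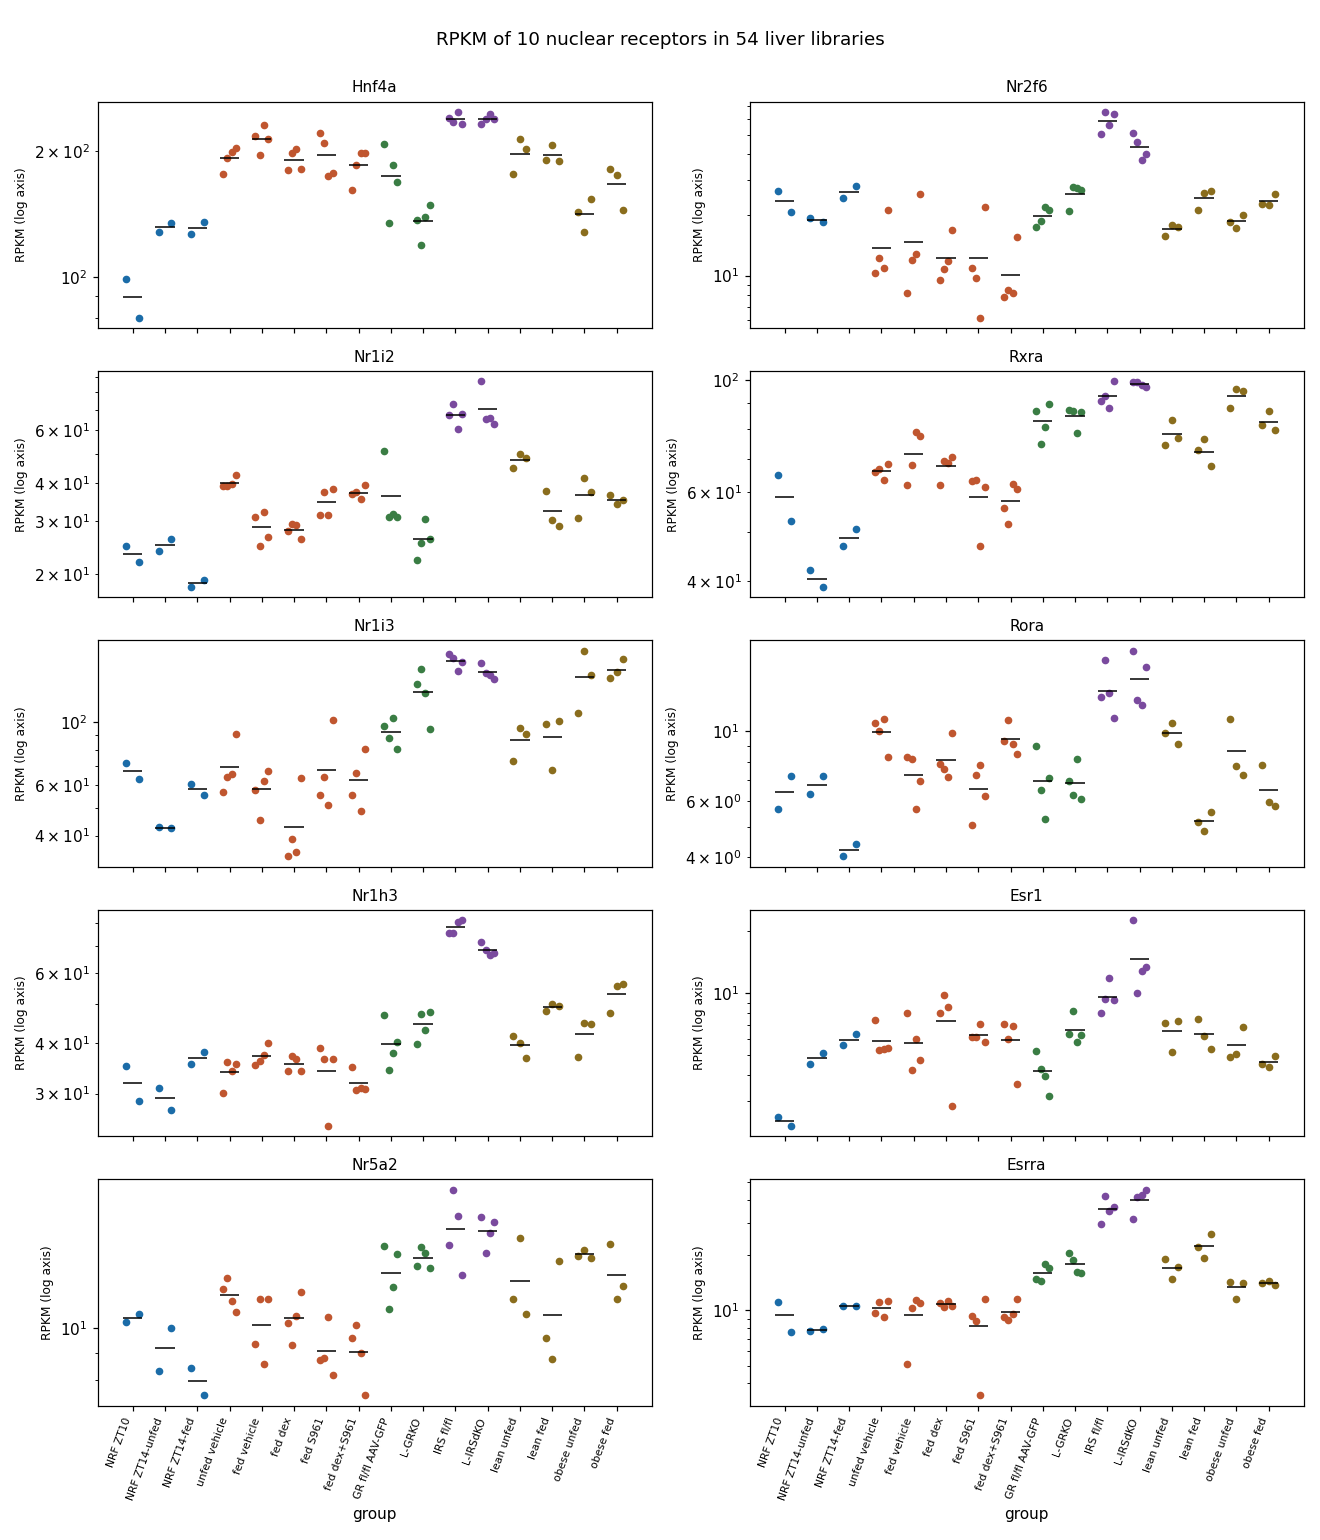
RPKM (log axis) of the 10 genes in each of 54 libraries by group, coloured by experiment, with a bar at the group mean. Hnf4a stands highest in lean unfed mice at 198 RPKM on average. Levels are to be read within an experiment only, given the marker sums of the L-IRSdKO experiment.

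The transition from ZT10 to ZT14 moved Esr1. It had 2.50 and 2.26 RPKM at ZT10, 4.54 and 5.14 at ZT14-unfed, and 5.57 and 6.30 at ZT14-fed, and the ZT10 libraries lie below all others. Its log2 fold change was 0.89 ± 0.12 (SE) for ZT14-unfed against ZT10 (adjusted p = 0.00929) and 1.16 ± 0.12 for ZT14-fed against ZT10 (adjusted p = 0.00326). Esr1 was the only 1 of 10 members called at 0.01 in either comparison, against 1.16% and 1.71% of all genes tested. With each of its 5 RefSeq IDs fitted by limma as its own row, not all passed. Those that did not had 0.58 and 0.56 at ZT14-unfed (adjusted p = 0.0446 and 0.0466). At ZT14-fed they had 0.78 and 0.68 (adjusted p = 0.0184 and 0.0272). With 2 libraries a group, Esr1 was called in 0 of 4 fits that left out 1 library.

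Other members differed between these times without passing 0.01. Hnf4a had 98.9 and 80.0 RPKM at ZT10 against 128 and 135 at ZT14-unfed (log2 fold change 0.56, adjusted p = 0.0301). Nr1i3 was at 72.1 and 63.3 RPKM at ZT10 and at 42.8 and 42.6 at ZT14-unfed (-0.66, adjusted p = 0.0138). Rxra was at 65.1 and 52.6 RPKM at ZT10 and at 42.1 and 39.0 at ZT14-unfed (-0.53, adjusted p = 0.0414). In none of the 3 genes did the groups overlap, nor did they in Nr5a2, Nr2f6 and Esr1. This makes 6 of 10 members without overlap, against 56.2% of all genes tested with these 2 libraries a group. The median of all genes tested shifted by -0.10 in this comparison, so that the values for Nr1i3 and Rxra include a common part of that size. The sum of 6 hepatocyte markers was 31276 to 31388 RPKM at ZT10 and 35720 to 36386 at ZT14-unfed, with 0 of 6 called, and their part in these values was not tested.

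Lists of target genes were also chosen with earlier results of these data known, and are given as descriptions. At ZT14-unfed against ZT10, 5 of 7 ROR target genes tested rose and 0 fell, with a median of 1.58 against -0.10 over all genes tested. Arntl, a core clock activator, rose by 2.08 ± 0.13 and Nfil3, a clock-linked repressor, by 1.76 ± 0.15 on the log2 scale, while the log2 fold change of Rora itself was 0.07 ± 0.14 (adjusted p = 0.776). Elovl3 of the same list rose by 2.01 ± 0.21. The list is mostly of clock genes, which cycle with time of day. With the meal in NRF mice, limma called 2 of 7 lower, Elovl3 and Nfil3 (-1.35 ± 0.15, adjusted p = 0.00655), and 0 higher. For ZT14-fed against ZT10, 4 of 7 rose and 0 fell, with a median of 0.88. The parts of time of day and of the longer fast in the rise at ZT14-unfed were not tested. In the other lists at ZT14-unfed against ZT10, 1 of 12 LXR target genes fell (Abcg8, a sterol exporter, -0.98 ± 0.10, adjusted p = 0.00547). There, 0 of 12 CAR and PXR, 0 of 12 HNF4A and 0 of 10 ERRα target genes passed. Of 22 other nuclear receptors tested, 1 passed, Nr3c2, the mineralocorticoid receptor (-1.17 ± 0.13).

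A meal lowered Nr1i2 in lean mice in 2 experiments. In the obesity experiment it had 44.8, 50.1 and 48.3 RPKM in lean unfed mice and 37.6, 30.3 and 28.8 in lean fed mice, with no overlap (log2 fold change -0.57 ± 0.12, adjusted p = 0.00744). In the injected mice it had 39.1, 39.2, 39.6 and 42.7 RPKM unfed and 31.0, 24.8, 32.0 and 26.5 fed with vehicle, again without overlap (-0.49 ± 0.09, adjusted p = 0.00924). Kupffer cell markers moved with this comparison. The sum of 5 was 45.1 to 58.7 RPKM unfed and 62.6 to 98.5 fed, 2 of 5 rose (Adgre1 by 0.81 and Cd5l by 0.74 on the log2 scale), and their part in the value of Nr1i2 was not tested. In the NRF mice it had 23.8 and 26.1 RPKM unfed and 18.1 and 19.1 fed (-0.41 ± 0.10, adjusted p = 0.0592), which did not pass. With the meal the groups did not overlap in 5 of 10 members in lean mice, against 43.3% of all genes, and in 2 of 10 in the injected mice (Nr1i2 and Rora), against 13.5%. The call in the injected mice was kept in 8 of 8 fits that left out 1 library, whereas that in lean mice was kept in 1 of 6.

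Rora fell and Nr2f6 rose with the meal in lean mice. Rora had 9.86, 10.6 and 9.13 RPKM unfed and 5.17, 4.83 and 5.56 fed (log2 fold change -0.87 ± 0.15, adjusted p = 0.00273), and the groups lie far apart. Nr2f6 had 15.7, 17.9 and 17.3 RPKM unfed and 21.2, 25.7 and 26.2 fed (0.50 ± 0.10, adjusted p = 0.00553). Thus 3 of 10 members were called in lean mice, against 10.2% of all genes tested. The call of Nr2f6 was lost under 2 other scalings of the libraries (adjusted p = 0.0153 and 0.0234), and that of Nr1i2 under the replicate block (adjusted p = 0.0169) and without filter (adjusted p = 0.0139). With the compared groups alone, limma lost both Nr2f6 (adjusted p = 0.0129) and Nr1i2 (adjusted p = 0.0111) and kept Rora (adjusted p = 0.00125). Leaving out 1 library kept Nr2f6 in 1 of 6 fits and Rora in 3 of 6. Markers of other cells also moved with the meal in lean mice. The sum of 5 endothelial markers was 54.3 to 65.6 RPKM unfed and 39.3 to 46.3 fed, that of 5 stellate and fibroblast markers 58.2 to 94.9 and 42.2 to 57.7, and that of 5 cholangiocyte markers 10.5 to 12.8 and 13.8 to 20.9. Of these 15 genes 14 were tested and 1 was called, Stab2 (-0.62 ± 0.11, adjusted p = 0.00301), and their part in these results was not tested.

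In the other meal comparisons the same genes had these values. Rora had 6.34 and 7.20 RPKM at ZT14-unfed and 4.02 and 4.42 at ZT14-fed (-0.62 ± 0.14, adjusted p = 0.0421, threshold 0.01), and -0.43 ± 0.14 in the injected mice (adjusted p = 0.103, threshold 0.05). Nr2f6 had 0.45 ± 0.14 in NRF mice (adjusted p = 0.0893) and 0.04 ± 0.35 in the injected mice, whose libraries spread widely for this gene. In NRF mice limma called 0 of 10 members with the meal, against 0.990% of all genes tested, and 6 of 10 were at an unadjusted p under 0.05, against 27.7% of all genes. In the injected mice 1 of 10 was called, Nr1i2, against 3.13%. The median of all genes shifted by 0.12 and 0.10 in these 2 comparisons, upward, opposite to Nr1i2 and Rora and in the direction of Nr2f6. In lean mice the median shifted upward by 0.08, likewise in the direction of Nr2f6.

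**Figure D2:**
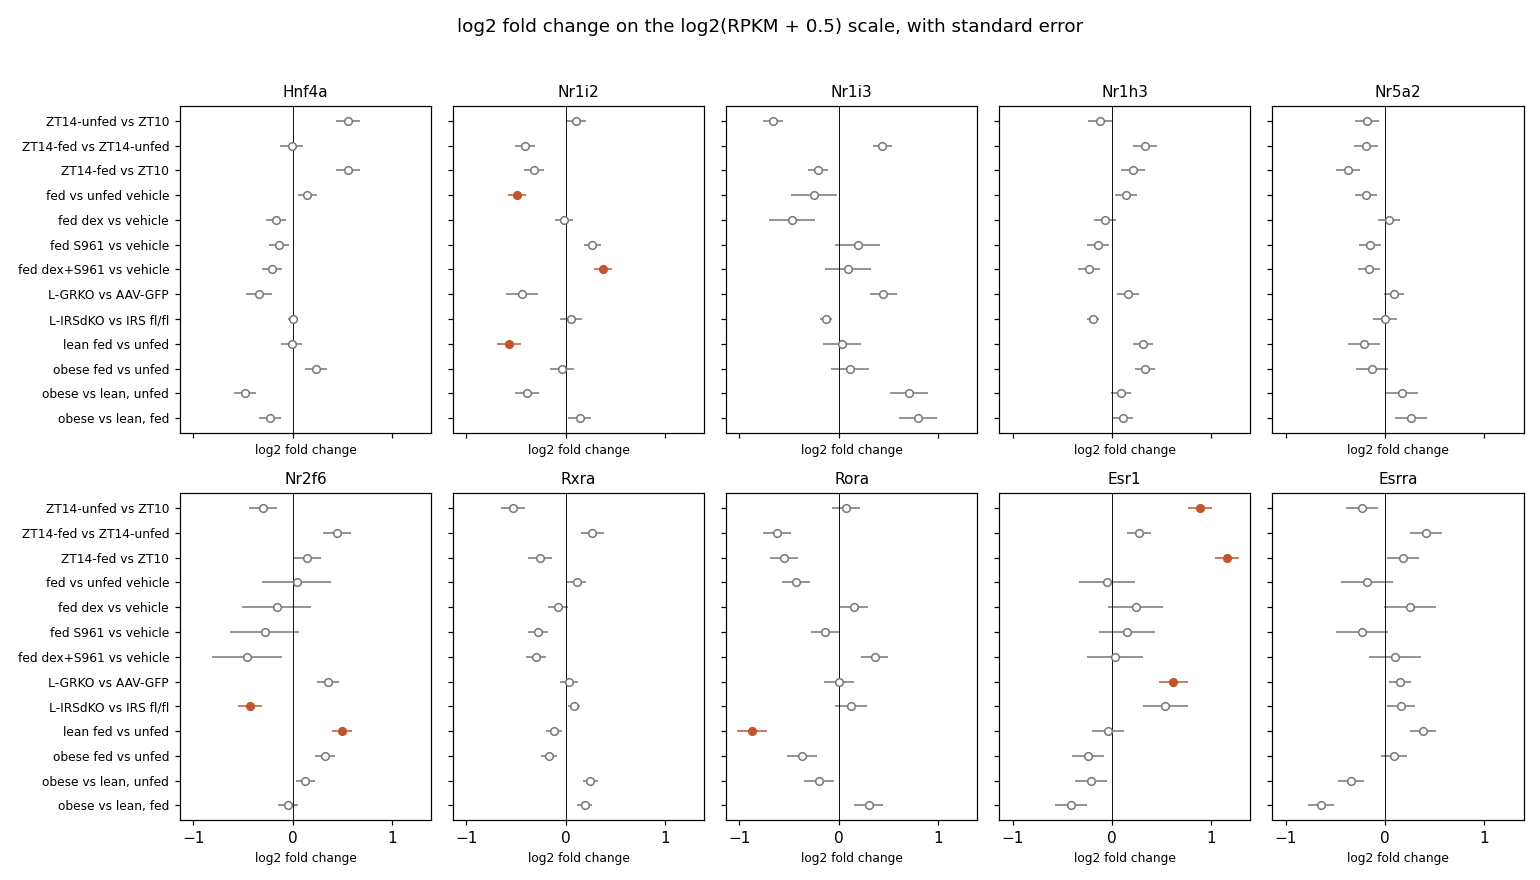
log2 fold change on the log2(RPKM + 0.5) scale with its standard error for each gene in 13 comparisons, filled where it passed the threshold. The filled points are Nr1i2 in 3, Esr1 in 3, Nr2f6 in 2 and Rora in 1.

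In obese mice 0 of 10 members were called with the meal (limma), against 1.22% of all genes tested, and 3 of 10 were at an unadjusted p under 0.05, against 25.2%. Nr1i2 had 30.6, 41.4 and 37.3 RPKM unfed and 36.5, 34.1 and 35.1 fed, which overlap. Rora had 10.9, 7.75 and 7.26 RPKM unfed and 7.84, 5.95 and 5.82 fed, and 1 fed library overlaps the unfed ones. Nr2f6 had 18.5, 17.3 and 20.1 RPKM unfed and 22.6, 22.4 and 25.5 fed, without overlap. Its log2 fold change in obese mice was 0.33 ± 0.10 (adjusted p = 0.0689, limma). Nr1h3 had 0.33 ± 0.10 in obese mice (adjusted p = 0.0596) and 0.31 ± 0.10 in lean mice (adjusted p = 0.0377), at a threshold of 0.01. The test of the difference between the meal effect in obese and lean mice gave 0.53 for Nr1i2 (adjusted p = 0.187) and 0.50 for Rora (adjusted p = 0.301), so that neither effect is shown to differ between the diets. That interaction called 0 of 10 members and 0.131% of all genes, and 2 of 10 members and 1713 of 11431 genes were at an unadjusted p under 0.05.

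Diet left all 10 members uncalled at 0.01. For obese against lean mice, 0 of 10 passed unfed (0.770% of all genes) and 0 of 10 fed (0.00% of all genes), by limma. At an unadjusted p under 0.05 there were 5 of 10 unfed and 4 of 10 fed, against 23.0% of all genes unfed and 2283 of 11431 genes fed. Nr1i3 had the widest gap. It was at 73.4, 95.7 and 90.8 RPKM in lean unfed and 108, 178 and 147 in obese unfed mice (0.71 ± 0.19, adjusted p = 0.0596), and at 98.7, 67.7 and 101 in lean fed and 143, 150 and 166 in obese fed mice (0.80 ± 0.19, adjusted p = 0.0851), without overlap in either. Hnf4a was at 177, 214 and 202 RPKM in lean unfed and 143, 128 and 154 in obese unfed mice (-0.48 ± 0.11, adjusted p = 0.0348). Esrra was at 22.1, 19.3 and 26.0 RPKM in lean fed and 14.1, 14.6 and 13.8 in obese fed mice (-0.64 ± 0.13, adjusted p = 0.0568). The groups did not overlap in 5 of 10 members unfed, which were Hnf4a, Nr1i2, Nr1i3, Rxra and Esrra, and in 6 of 10 fed, which were Hnf4a, Nr1i3, Rxra, Rora, Esr1 and Esrra, against 22.9% and 32.6% of all genes tested. Among these Nr1i2 had -0.39 ± 0.12 unfed (adjusted p = 0.0847) and Rxra 0.25 ± 0.08 unfed (adjusted p = 0.0879) and 0.19 ± 0.08 fed (adjusted p = 0.199). Hepatocyte markers, 6 in number, summed to 54981 to 64671 RPKM in lean and 45537 to 52937 in obese unfed mice, and endothelial markers to 54.3 to 65.6 and 30.9 to 39.3. In fed mice the hepatocyte markers summed to 54788 to 58653 RPKM in lean and 44629 to 47401 in obese mice, and the part of these markers was not tested.

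Dex and S961 were tested against fed vehicle. With dex alone 0 of 10 members were called (limma) against 3.19% of all genes, with S961 alone 0 of 10 against 1.89%, and with both 1 of 10, Nr1i2, against 10.6%. At an unadjusted p under 0.05 there were 0 of 10 with dex, against 18.5% of all genes, and 2 of 10 with S961, against 14.3%. A term for the library series gave 1 of 10 with dex, Nr1i3 (adjusted p = 0.0229), where 9.74% of all genes were called, and 2 of 10 with both, Nr1i2 (adjusted p = 0.00580) and Rxra (-0.30 ± 0.09, adjusted p = 0.0303), where 19.6% were called. The replicate block called the same members, Nr1i3 with dex (adjusted p = 0.0323, 8.61% of all genes called) and Nr1i2 (adjusted p = 0.0109) and Rxra (adjusted p = 0.0437) with both (18.1% of all genes called). Nr1i2 had 27.7, 29.3, 28.9 and 26.1 RPKM with dex, 31.3, 37.4, 31.3 and 38.3 with S961, and 36.8, 37.4, 35.4 and 39.3 with both. Its log2 fold change was -0.02 ± 0.09 with dex (adjusted p = 0.937), 0.27 ± 0.09 with S961 (adjusted p = 0.164) and 0.38 ± 0.09 with both (adjusted p = 0.0133). All libraries given both compounds lie above all fed vehicle libraries. The groups did not overlap in 3 of 10 members in this comparison (Nr1i2, Nr1h3 and Rora), against 17.1% of all genes. Kupffer cell markers moved the opposite way: their sum was 62.6 to 98.5 RPKM in fed vehicle and 50.8 to 59.8 with both, 3 of 5 fell with both and 1 of 5 with dex (Cd5l, -0.74 ± 0.18), and 2 of 5 endothelial markers fell with dex (Kdr, -0.82 ± 0.16, and Clec4g, -0.47 ± 0.12). With S961 alone 2 of 5 Kupffer cell markers fell (Adgre1, -0.90 ± 0.20, and Cd5l, -0.74 ± 0.18), with a sum of 42.7 to 64.5 RPKM. The part of these markers was not tested. The test for a non-additive response gave 0.13 for Nr1i2 and called 0 of 10 members and 0.00% of all genes (limma), with 0 of 10 members and 4.56% of all genes at an unadjusted p under 0.05.

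Nr1i3 and Nr2f6 differed by the library series in these mice. Nr1i3 had 33.8, 38.9 and 35.0 RPKM in replicates 1 to 3 with dex and 63.9 in replicate 4, beside 58.0, 45.5, 62.4 and 67.2 in fed vehicle (-0.47 ± 0.23, adjusted p = 0.278). Without the second series the change was -0.61 ± 0.13 (adjusted p = 0.0153), where 7.29% of all genes were called. Nr2f6 in replicate 4 was at 25.6 RPKM in fed vehicle against 8.14 to 12.8 in the other replicates, and at 15.6 with both compounds against 7.79 to 8.48.

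**Figure D3:**
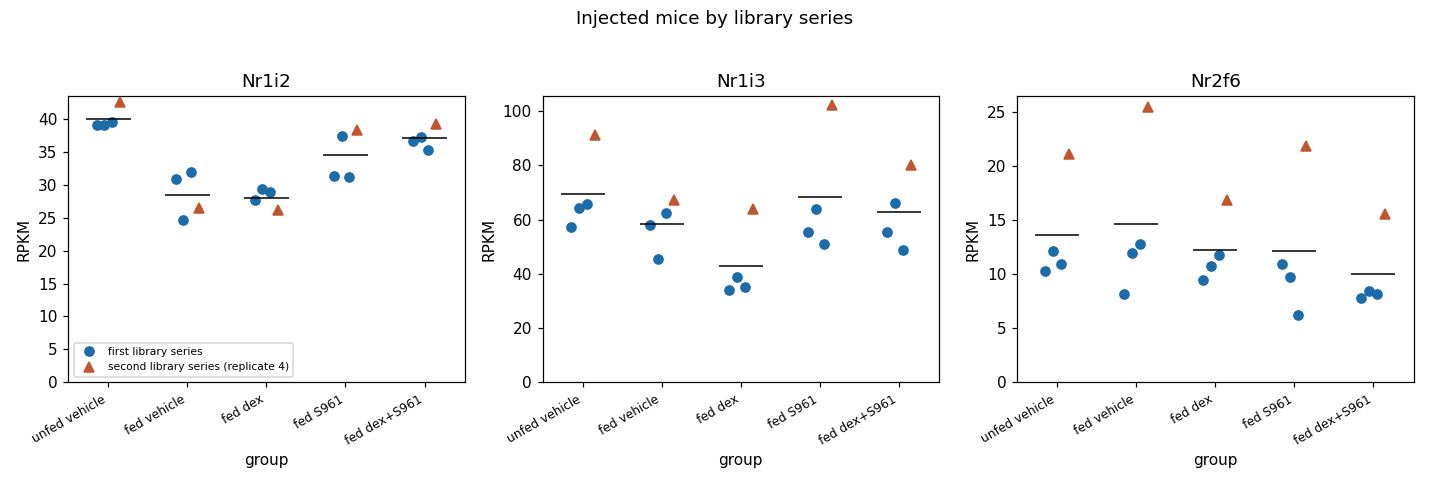
RPKM of Nr1i2, Nr1i3 and Nr2f6 in the injected mice, axis from 0, with circles for the first library series, triangles for replicate 4 of the second series and a bar at the group mean. The triangles of Nr2f6 lie above the circles in every group, 25.6 RPKM against at most 12.8 in fed vehicle.

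Some targets of CAR and PXR changed with dex, in both directions. Of 12 tested, 3 rose, 1 fell and 8 did not pass, with a median of 0.13 against -0.10 over all genes. Gadd45b, a stress-response gene, rose by 2.37 ± 0.47 (adjusted p = 0.00850), Cyp2b10, the classic CAR-induced cytochrome P450, by 2.30 ± 0.49 (adjusted p = 0.0128), and Cyp2c37 fell by 1.13 on the log2 scale (SE 0.20). With both compounds 2 of 12 rose and 0 fell. Of 15 coregulators, 1 rose with dex, Ppargc1a, the PGC-1α coactivator (0.96 ± 0.15, adjusted p = 0.00148). Ppargc1a was also the 1 coregulator called with S961 alone (0.81 ± 0.15, adjusted p = 0.00921) and with both compounds (1.08 ± 0.15, adjusted p = 0.000230). Of 12 LXR target genes 1 rose and 1 fell with S961, and the one that fell was Srebf1, a lipogenic regulator that insulin also raises (-1.84 ± 0.22, adjusted p = 0.000523). With dex 1 of 12 fell, Abcg1 (-0.74 ± 0.15). Among 12 HNF4A target genes, limma called Cyp7a1 lower with S961 (-2.22 ± 0.37, adjusted p = 0.00410) and with both compounds (-1.78 ± 0.37, adjusted p = 0.00470). Among 25 other nuclear receptors tested, 1 fell with S961, Nr3c2 (-0.74 ± 0.14). With both compounds 2 fell, Nr3c2 (-0.62 ± 0.14) and Rarg (-0.84 ± 0.25).

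Loss of GR in hepatocytes was accompanied by a rise of Esr1. It had 5.25, 4.27, 3.98 and 3.17 RPKM in GR fl/fl AAV-GFP and 6.30, 8.18, 5.78 and 6.29 in L-GRKO, with no overlap (0.62 ± 0.15, adjusted p = 0.0360). It was the 1 of 10 members called at 0.05, against 6.68% of all genes. The call was lost with 2 other scalings (adjusted p = 0.102 and 0.0890) and was kept in 2 of 8 fits that left out 1 library. The groups did not overlap in 2 of 10 members, Esr1 and Nr1i2, against 12.8% of all genes. Nr1i3 was at 96.7, 88.2, 103 and 80.6 RPKM in controls and 136, 154, 127 and 94.3 in L-GRKO (0.45 ± 0.14, adjusted p = 0.0960), and Nr1i2 at 51.0, 30.9, 31.7 and 30.9 against 22.2, 25.2, 30.4 and 26.1 (-0.44 ± 0.16, adjusted p = 0.154). Of 25 other nuclear receptors tested, 4 rose and 1 fell, which was the targeted Nr3c1. Erythroid markers summed to 223 to 289 RPKM in controls and 331 to 623 in L-GRKO, with 3 of 3 called higher, and 2 of 6 hepatocyte markers fell (Tat, -1.03 ± 0.22, and Cps1, -0.90 ± 0.12). Their part in these values was not tested.

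In the dex-treated L-IRSdKO mice Nr2f6 was lower. It had 50.5, 65.2, 55.9 and 64.0 RPKM in IRS fl/fl and 50.9, 46.1, 37.5 and 40.4 in L-IRSdKO, which overlap through 1 library each (-0.43 ± 0.12, adjusted p = 0.0384). It was the 1 of 10 members called, against 17.4% of all genes, and was kept in 2 of 8 fits that left out 1 library. Nr1h3 came near, with 75.4, 75.1, 80.5 and 81.1 RPKM in IRS fl/fl and 71.5, 68.2, 66.5 and 67.0 in L-IRSdKO, without overlap (-0.19 ± 0.06, adjusted p = 0.0538). It was the 1 of 10 members without overlap, against 21.7% of all genes. Of 12 LXR target genes 5 rose and 2 fell, with Srebf1 again lower (-1.82 ± 0.30) and Lpl, a lipase, higher (2.22 ± 0.49). Ppargc1a rose by 2.18 ± 0.25 on the log2 scale. Markers of several cell types differed here too. Cholangiocyte markers summed to 19.7 to 46.2 RPKM in controls and 7.87 to 13.9 in knockouts, without overlap, and 2 of 4 tested fell (Spp1, -1.65 ± 0.32, and Krt7, -1.14 ± 0.23). Endothelial markers summed to 88.9 to 116 and 108 to 143 RPKM, and 3 of 5 rose, Lyve1 by 1.47 ± 0.23 on the log2 scale. Kupffer cell markers summed to 141 to 262 and 248 to 318 RPKM with 1 of 5 higher, erythroid markers to 85.9 to 148 and 58.7 to 85.8 RPKM with 1 of 3 lower, and 2 of 6 hepatocyte markers fell (Serpina1c, -0.68 ± 0.11, and Ttr, -0.45 ± 0.10). The part of these markers in the value of Nr2f6 was not tested.

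GR and FOXO1 peaks lie near most of these genes. Within 50 kb of the 5′ end in the mm9 annotation, 9 of 10 members had a GR peak and 8 of 10 a FOXO1 peak, against 49.0% and 51.8% of the 9059 genes whose mean reached 1 RPKM. The shares depend on the distance: within 20 kb they were 50% and 60% of the members, against 31.1% and 34.5% of these genes. The lists hold 10446 GR peaks, 8546 FOXO1 peaks and 83592 DHSs as positions, with no height and no value per condition. Per the study's methods, the GR and FOXO1 peaks are those found in both of a pair of replicates from unfed livers, so that the lists do not speak of fed livers. Within 50 kb the 10 genes had 33 GR peaks and 22 FOXO1 peaks in all, and 15 of each overlapped the other by at least 90 bases. That is 45.5% of the GR and 68.2% of the FOXO1 peaks near them, against 44.6% and 54.5% over the full lists. A DHS was overlapped by 22 of the 33 GR peaks (66.7%) and 15 of the 22 FOXO1 peaks (68.2%). Over the full lists these shares were higher, at 81.6% and 84.9%. Nr1i3 had the most, with 9 GR and 7 FOXO1 peaks, and Esr1 had 6 and 2. Rora had 0 of each around its annotated 5′ end, but 15 GR and 6 FOXO1 peaks within 50 kb of any of its 6 annotated transcript starts.

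**Figure D4:**
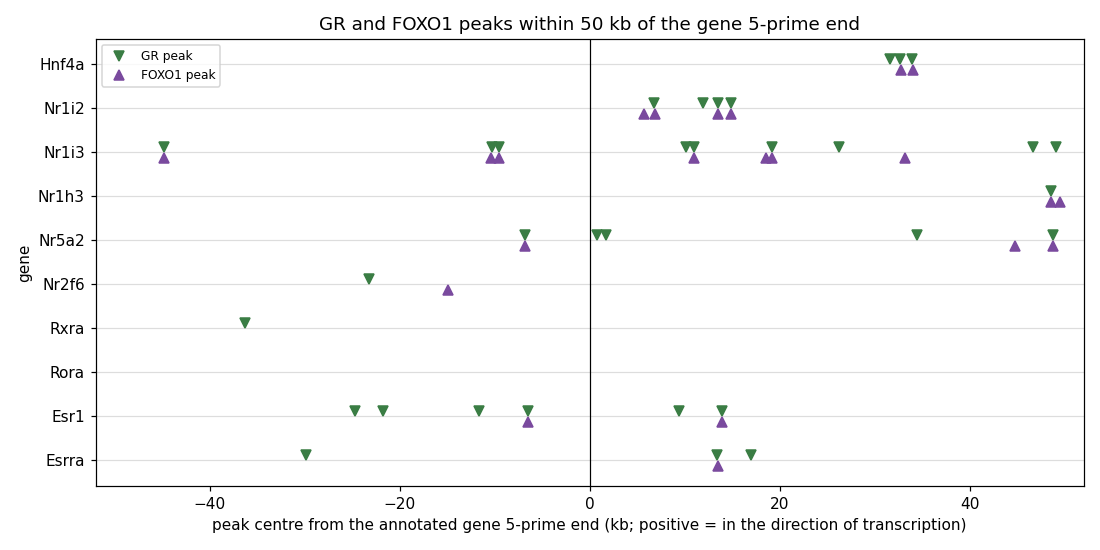
Distance in kb from the annotated 5′ end to the centre of each GR peak (green) and FOXO1 peak (purple) within 50 kb, positive in the direction of transcription. Nr1i3 carries 9 GR peaks and Rora 0.

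Nr1i2 (chr16, minus strand) had 4 GR peaks, all in its introns, from 6810 to 14866 bp into the gene, and 3 of them overlapped a FOXO1 peak. Esr1 (chr10, minus strand) had GR peaks on both sides of its 5′ end. Sequences are shown for these 2 genes because they were the members most often called. They are on the plus strand of mm9. Capitals mark TGTTCT (the GR half-site), AGGTCA (the half-site of many nuclear receptors) and TGTTTAC (a FOXO site), on either strand. The 3 shared Nr1i2 peaks are shown, and the Nr1i2 GR peak left out held none of these. Of the 6 Esr1 GR peaks, the 1 with most TGTTCT and the only 1 with TGTTTAC are shown, so that they do not stand for all 6. The Nr1i2 peaks at chr16:38288010 and chr16:38281287 overlapped no DHS.
Nr1i2 GR peak at chr16:38288010-38288189: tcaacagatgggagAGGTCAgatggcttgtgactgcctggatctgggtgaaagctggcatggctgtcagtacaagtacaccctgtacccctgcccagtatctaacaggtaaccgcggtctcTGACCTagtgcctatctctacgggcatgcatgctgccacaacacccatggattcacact
Nr1i2 GR peak at chr16:38281287-38281466: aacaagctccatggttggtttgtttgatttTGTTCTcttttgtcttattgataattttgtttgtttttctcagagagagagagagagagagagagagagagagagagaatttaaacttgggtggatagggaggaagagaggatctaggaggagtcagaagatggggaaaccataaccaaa
Nr1i2 GR peak at chr16:38279954-38280133: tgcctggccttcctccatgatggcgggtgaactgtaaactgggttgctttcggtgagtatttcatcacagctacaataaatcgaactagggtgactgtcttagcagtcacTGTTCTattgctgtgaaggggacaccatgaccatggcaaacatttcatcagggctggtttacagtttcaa
Esr1 GR peak at chr10:5746545-5746724: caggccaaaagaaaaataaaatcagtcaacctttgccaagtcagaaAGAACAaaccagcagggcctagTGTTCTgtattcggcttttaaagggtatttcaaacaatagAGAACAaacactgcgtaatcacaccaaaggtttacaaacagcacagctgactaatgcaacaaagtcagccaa
Esr1 GR peak at chr10:5720898-5721077: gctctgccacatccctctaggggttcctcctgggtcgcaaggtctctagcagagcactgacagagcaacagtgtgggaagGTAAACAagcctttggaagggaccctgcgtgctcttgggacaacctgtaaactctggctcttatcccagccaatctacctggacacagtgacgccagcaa
Of the 33 GR peaks near the members, 10 (30.3%) held TGTTCT, against 27.7% of all GR peaks and 14.3% of DHSs. AGGTCA was in 7 of 33 (21.2%), against 24.0%, and TGTTTAC in 3 of 33 (9.09%), against 7.29%. The Esr1 peak upstream of the gene held TGTTCT 3 times. These matches describe letters and not binding.

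The genes most like Nr1i2 over the 54 libraries, with each experiment's mean removed, were Angptl4 (r = 0.77), Arl4a (r = 0.75) and Slc25a51 (r = 0.72), out of 8994 genes searched. For Nr2f6 they were Maz (r = 0.92), Slc25a23 (r = 0.90) and Zbtb7b (r = 0.89), and for Esr1 Dpyd (r = 0.61), Slc25a3 (r = 0.56) and Crls1 (r = 0.55). The libraries are not independent points, since groups within an experiment share their conditions and replicate 4 of the injected groups shares a library series, and they differ in depth. No p is given.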

How the data were processed

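RNA was measured in 54 liver libraries. The authors aligned reads to mm9 with STAR, counted with HOMER, called regulated genes with DESeq2, and deposited RPKM per RefSeq transcript, a unit in which a few abundant transcripts can shift all others. They deposited GR, FOXO1 and DHS regions as positions, called with HOMER, the GR and FOXO1 peaks being those shared by replicates of unfed livers and the DHSs being called on reads combined over all DNase replicates. H3K27Ac and per-condition occupancy were not analysed here.

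The 35707 RefSeq IDs gave 24308 symbols. Each experiment was fitted apart in limma 3.58.1 (R 4.3.3) with trend on log2(RPKM + 0.5), with a mean of at least 0.5 RPKM, and Benjamini-Hochberg adjustment over all genes, at 0.01 (NRF, obesity) or 0.05. The fold change on this scale understates that of low genes. The fit was tested on simulated data. Members are always named, and from each other list up to 3 called genes by size. The members and lists were chosen with earlier results of these data known. Peaks and sequences were read with pysam 0.24.0 from NCBIM37 (mm9) and GENCODE. Alternatives were other pseudocounts, filters, scalings, thresholds, a replicate block, a library series term, each RefSeq ID as its own row and each library left out.

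Depth is not given by RPKM. Steps of single-exon genes, with at least 91.6% of low values within 0.1 read of a whole number, gave, in units of 1000000 reads a library, 25.8 to 37.7 (NRF), 6.40 to 13.3 (injected), 16.6 to 61.4 (obesity), 30.3 to 54.3 (L-GRKO) and 7.18 to 8.89 (L-IRSdKO). Such steps fix depth only up to a whole factor. The search first began at 4 of these units and put 3 L-IRSdKO experiment libraries between 4.00 and 4.42; its lower bound was then raised to 5 because these were far below the totals the study lists, and the values themselves do not tell the solutions apart. The L-GRKO values lie far above the totals the study lists, also after this step, and may be too high by a whole factor. No test uses these depths.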

Additional observations from a re-analysis of the deposited data

Results flagged for a closer look

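In 10 of 90 groups of 4 libraries, 1 library of a member stood apart by Dixon's criterion, which chance meets in about 1 in 20 groups. In the injected mice these were Nr1i2 at 42.7 RPKM in unfed vehicle, Nr1i3 at 63.9 with dex and Nr2f6 at 15.6 with dex and S961, all in replicate 4 of the second library series, and Nr1h3 at 34.9 with dex and S961, Rxra at 47.1 with S961 and Esr1 at 7.37 in unfed vehicle in the first series. In the floxed mice they were Nr1i2 at 51.0 RPKM in GR fl/fl AAV-GFP and at 87.1 in L-IRSdKO, and in L-GRKO Nr2f6 at 21.0 and Rxra at 78.6.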

How the results depend on the processing

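Counts of members called moved as follows. For ZT14-unfed against ZT10 (1 called), 0 were called with the compared groups alone, no filter, no variance trend or a pseudocount of 1, 2 with a mean of at least 2 RPKM and 4 at the threshold of 0.05. For ZT14-fed against ZT10 (1 called), 0 were called without filter and 2 at 0.05, and for ZT14-fed against ZT14-unfed 2 at 0.05. With dex 1 was called with a library series term and 1 in the first series alone, the latter chosen after seeing the data. With dex and S961, 0 were called with the compared groups alone or at 0.01, and 2 with a series term or median-ratio scaling. In L-GRKO 0 were called at 0.01, without filter and under both scalings, and in L-IRSdKO 0 at 0.01, without filter or trend and 2 under median-ratio scaling. In lean mice 1 was called with the compared groups alone and 5 at 0.05, and for obese against lean unfed 1 at 0.05.

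Nothing in the labels pairs the mice by replicate number. In the injected mice deviations of same-numbered libraries correlated between -0.12 and 0.32 in replicates 1 to 3 and between 0.44 and 0.61 in replicate 4, and no comparison with fed vehicle had all 4 pairs over 0.1. With the replicate block, 0 members were called in both comparisons with ZT10 and in L-IRSdKO, 1 with dex and 2 with dex and S961.

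Leaving out 1 library gave 0 to 1 called in L-GRKO, 0 to 2 with dex and S961, in L-IRSdKO and in lean mice, and 0 to 0 in both comparisons with ZT10. No called member changed sign in any alternative. Within 20 kb, 100 kb or 50 kb of any transcript start, the members had 18, 51 and 55 GR peaks, 14, 38 and 34 FOXO1 peaks and 60, 193 and 167 DHSs.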
